A study of Mus musculus with 44 samples.

Results

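Basement membrane genes were followed in normal fibroblasts (NFs) of the mouse mammary gland and in cancer-associated fibroblasts (CAFs) of mouse mammary tumors. They comprise 33 genes, chosen by symbol from the 55486 genes of the deposited count table, namely the 6 collagen IV chains, 10 laminin chains, both nidogens, perlecan, agrin and 13 further proteins of basement membranes. All 33 were found and all 33 passed the filter on low counts. The members and the gene lists below were chosen with earlier results of these data known. Their shares that passed a test, set below beside those of all genes, are therefore descriptions and no test of enrichment. The study asked which mammary fibroblasts become CAFs, and it split them by CD26, a surface peptidase encoded by Dpp4. Fibroblasts were sorted as EpCAM-/CD49f-/CD31-/CD45- cells into CD26- and CD26+ classes, and each class by GFP, which in the En1-Cre;mTmG recipients marks cells that had expressed En1-Cre. mRNA was sequenced in 44 libraries from 13 mice, and libraries of a mouse and class were summed, which gave 25 sums.

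All recipients were En1-Cre;mTmG females in which the host's own fat pad was not cleared, so that host cells of the gland remained beside the graft. Mice 1 to 3 had received control mammary tissue and gave NFs (3 sums per class). The labels of these 3 hold a pair of animal numbers each, so that each may be a pool, and each was counted as 1 mouse. Mice 4 to 8 carried WB1P tumors, which lack Brca1 and Trp53 in cells that had expressed WapCre (WapCre;Brca1 F/F;Trp53 F/F), and gave 5 sums of CD26- and 4 of CD26+ CAFs, since mouse 4 had no CD26+ library. Mice 9 to 13 carried WB1P-Myc tumors, which add the allele Col1a1 invCAG-Myc-IRES-Luc, and gave 5 sums per class. The label of mice 12 and 13 bears the mark 8x8, which it does not explain. The study's methods give 8 × 8 mm as the size of advanced tumors, before end-stage, so that these mice may differ in stage from the others.

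Basement membranes are thin sheets of matrix under epithelia and endothelia and around muscle, fat and pericytes. Laminin trimers of an alpha, a beta and a gamma chain form a first network on the cell surface, collagen IV trimers form a second and crosslinked one, and nidogens, perlecan and agrin tie both together. In the mammary gland the sheet separates epithelium from stroma, and fibroblasts, myoepithelium, endothelium and mural cells all add to it.

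Collagen IV genes lie as head-to-head pairs, and the short pieces between their start sites are shown because each pair shares them, whether or not its genes moved together. Coordinates are on GRCm38. Col4a1 (ENSMUSG00000031502, chr8:11198423-11312826, minus strand) and Col4a2 (ENSMUSG00000031503, chr8:11312805-11449287, plus strand) have start sites whose transcripts overlap by 22 bases. Col4a4 (chr1:82448423-82586849, minus strand) and Col4a3 (chr1:82586921-82722059, plus strand) start 72 bases apart, and Col4a6 (minus strand) and Col4a5 (chrX:141475385-141689234, plus strand) 1309 bases apart. RefSeq windows from 250 bases before to 50 bases after a start site were at hand for 23 of the 33 members, as 29 windows on GRCm38.p6. The pieces below are written 5′ to 3′ on the strand of the gene on the minus strand, and capitals mark a GC box (GGGCGG or its complement CCGCCC).
Col4a1/Col4a2, overlap of both start sites, chr8:11312805-11312826: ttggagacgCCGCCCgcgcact
Col4a4/Col4a3, between both start sites, chr1:82586850-82586920: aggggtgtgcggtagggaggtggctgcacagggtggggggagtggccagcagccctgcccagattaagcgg
The first piece holds a GC box and the second none. Lama5 and Tinagl1 were highest in CD26- CAFs among the 4 kinds of cells. For Lama5 the lowest sum of CD26- CAFs lay only just above the highest of CD26+ CAFs. Both genes are shown with the 250 bases before their start.
Lama5, chr2:180225860-180226109, minus strand: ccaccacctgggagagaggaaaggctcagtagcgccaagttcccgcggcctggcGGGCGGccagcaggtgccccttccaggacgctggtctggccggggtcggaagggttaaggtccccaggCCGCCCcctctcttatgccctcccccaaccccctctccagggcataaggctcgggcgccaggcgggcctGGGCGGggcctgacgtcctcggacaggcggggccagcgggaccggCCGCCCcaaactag
Tinagl1, chr4:130175123-130175372, minus strand: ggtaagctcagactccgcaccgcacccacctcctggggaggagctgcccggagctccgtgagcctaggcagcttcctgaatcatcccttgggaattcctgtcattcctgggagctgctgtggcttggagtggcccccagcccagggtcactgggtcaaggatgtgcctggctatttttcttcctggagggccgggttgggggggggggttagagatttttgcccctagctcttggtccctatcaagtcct
The Lama5 piece holds GC boxes and the Tinagl1 piece none. Tinagl1 has 2 RefSeq windows, and the one not shown, of another start site, holds a GC box. Over the full windows, a GC box on either strand was found in 16 of the 29 member windows and in 35.7% of all 32851 RefSeq windows. CCAAT (or ATTGG) was found in 10 of 29 and in 37.4% of all, and TATAAA (or TTTATA) in 0 of 29 and in 13.6% of all. A match is a description of letters and not of a bound site.

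Libraries held 5790599 to 15240328 counts. Values are given as CPM, counts scaled to the library size after edgeR's TMM normalization, and fold changes on the log2 scale with 1 standard error (SE). Called means a false discovery rate (FDR) under 0.05 in edgeR's quasi-likelihood test, adjusted over all 16601 genes tested. Dpp4 was higher in CD26+ than in CD26- cells by 6.05 ± 0.37 in CAFs and 6.75 ± 0.66 in NFs. Fibroblast markers (7 genes) summed to between 20050 and 57006 CPM in the 25 sums. Pericyte and smooth muscle markers (10 genes, Rgs5 the highest) summed to 219 to 417 CPM in CD26- NFs and to 1969 to 9624 CPM in CD26- CAFs, against 158 to 396 CPM in both CD26+ classes, and all 10 rose in CD26- CAFs. Endothelial markers (10 genes) summed to 59.5 to 89.5 CPM in CD26- NFs and 208 to 531 CPM in CD26+ NFs. Tek alone had a mean of 298 CPM in CD26+ NFs. Between the NF classes 1 of the 10 was called higher in CD26+ cells and 0 lower. In CAFs the endothelial markers summed to 149 to 384 (WB1P) and 110 to 506 CPM (WB1P-Myc) in the CD26- class and to 77.1 to 176 and 110 to 198 CPM in the CD26+ class. The highest of them was Flt1 in CD26- CAFs (means of 192 and 186 CPM) and Tek in CD26+ CAFs (110 and 108 CPM). Against NFs 3 of the 10 rose and 6 fell in CD26- CAFs, and 0 rose and 7 fell in CD26+ CAFs. Epithelial markers (10 genes) summed to 6.23 to 208 CPM and immune ones (8 genes) to 13.5 to 250. Pericytes and endothelial cells make basement membrane themselves, and in these bulk sums fewer cells of a type and less RNA per cell cannot be told apart. The part of such cells in the results below was not tested.

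In CD26- CAFs, 7 members rose and 12 fell against CD26- NFs, 57.6% of the 33, where 41.3% of all genes tested were called (20.4% higher and 21% lower), and the other 14 were not called. Of these, 4 rose and 7 fell by more than 2 on the log2 scale, the limit the study set, which 11.3% of all genes passed. Lama1, Lama5, Lamb3, Npnt, Smoc1, Ntn4 and Tinagl1 rose. Col4a3, Col4a4, Lama2, Lamb1, Lamb2, Lamc1, Lamc3, Nid1, Hspg2, Hmcn1, Hmcn2 and Fras1 fell. In CD26+ CAFs only Lama1 rose and 14 members fell against CD26+ NFs, 45.5% of the 33 and near the 41.2% of all genes that were called (20.1% higher and 21.1% lower), and 18 were not called. Of the called, 1 and 6 passed 2 on the log2 scale, as did 8% of all genes. The 14 were Col4a1, Col4a2, Col4a3, Col4a4, Lama2, Lamb1, Lamc1, Lamc3, Nid2, Col15a1, Col18a1, Hmcn1, Fras1 and Frem1. The median log2 fold change of the members was -0.08 in CD26- and -0.49 in CD26+ cells, and that of all genes 0.01 and 0.00. Taken by tumor type, 8 members rose and 10 fell in WB1P and 7 rose and 12 fell in WB1P-Myc CD26- CAFs, where 35.4% and 36.6% of all genes were called. In CD26+ CAFs 1 rose and 12 fell in WB1P and 1 rose and 14 fell in WB1P-Myc, where 33.5% and 34.7% of all genes were called. Both tumor types were set against the same 3 control mice. With control mouse 1 or 3 left out, 3 and 4 members rose in CD26- CAFs. Fewer of all genes were called there too, 5938 of 17071 and 4890 of 17011, against 6860 of 16601 with all mice.

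**Figure D1:**
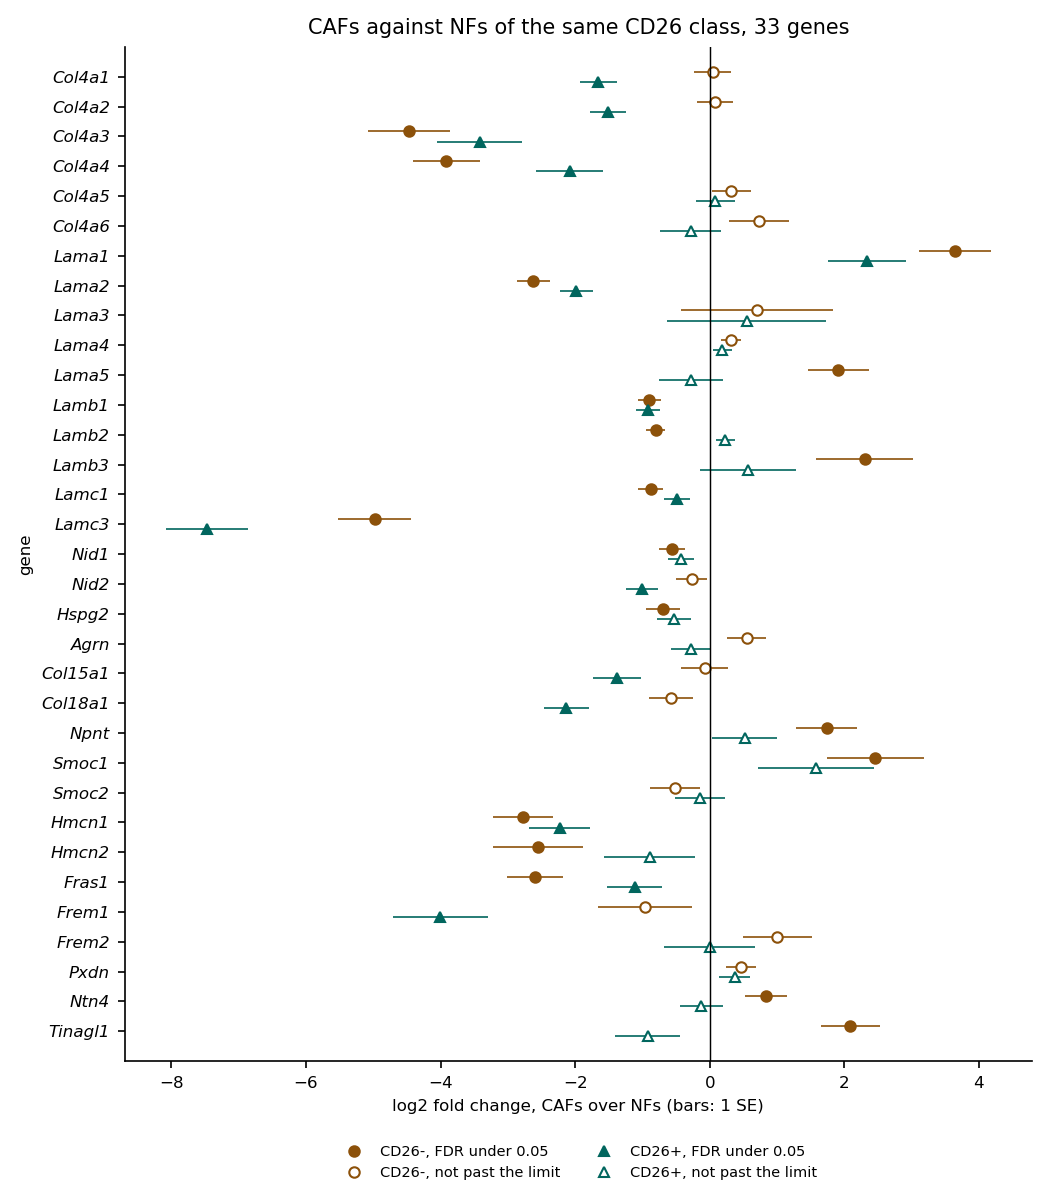
Log2 fold change of CAFs over NFs of the same CD26 class for each of the 33 genes (horizontal axis, bars 1 SE, brown circles CD26-, green triangles CD26+). Filled marks have an FDR under 0.05. Col4a1 and Col4a2 lie near 0 in CD26- and at -1.66 and -1.52 in CD26+ cells, Lamc3 lies farthest to the left in both, and Lama1 is the one gene called higher in both.

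CD26+ and CD26- CAFs of the same tumors differed past the test in most members, and NFs in few. The CAF classes had 9 and 10 sums and the NF classes 3 each, and fewer of all genes were called in NFs. In CAFs 8 members were higher and 15 lower in the CD26+ class, 69.7% of the 33, where 39% of all genes were called (19.1% higher and 19.9% lower). Col4a5, Lama4, Lamb2, Lamc1, Nid1, Hmcn2, Fras1 and Ntn4 were higher. Col4a1, Col4a2, Col4a6, Lama1, Lama5, Lamc3, Nid2, Agrn, Col15a1, Col18a1, Npnt, Smoc1, Frem1, Frem2 and Tinagl1 were lower, 9 of them by more than 2 on the log2 scale, a limit that 7.61% of all genes passed. Within WB1P tumors 7 were higher and 12 lower, and within WB1P-Myc tumors 7 higher and 15 lower, where 26% and 20% of all genes were called. In NFs 3 members were higher in the CD26+ class (Col4a5, Lama4 and Ntn4) and 0 lower, 9.09% of the 33, where 4.17% of all genes were called (2.67% higher and 1.49% lower). Beside that 0, the NF classes differed in 10 members at an unadjusted p under 0.05, a limit at which all genes were not counted. DESeq2 called 1 member lower, where it called 996 of 16601 genes in either direction. The median of the members was -0.64 in CAFs and -0.34 in NFs, and that of all genes 0.01 and -0.02. The 2 classes of a mouse are paired, and with mouse as a block 4 members were higher and 3 lower in CD26+ NFs, and 8 higher and 17 lower in CD26+ CAFs. That fit called more of all genes too, 1916 of 16601 between the NF classes and 8208 between the CAF classes. The block added Nid1 (0.73, adjusted p = 0.049), Lamc3 (-1.99, adjusted p = 0.00278), Smoc2 (-0.96, adjusted p = 0.0345) and Frem2 (-2.22, adjusted p = 0.0233) in NFs, and Lama3 (-0.82, adjusted p = 0.00534) and Smoc2 (-0.65, adjusted p = 0.00337) in CAFs. The 3 calls in NFs without the block were lost whichever control mouse was left out. Without mouse 1, 2 or 3, 480 of 17071, 230 of 16950 and 175 of 17011 genes were called there, against 692 of 16601.

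**Figure D2:**
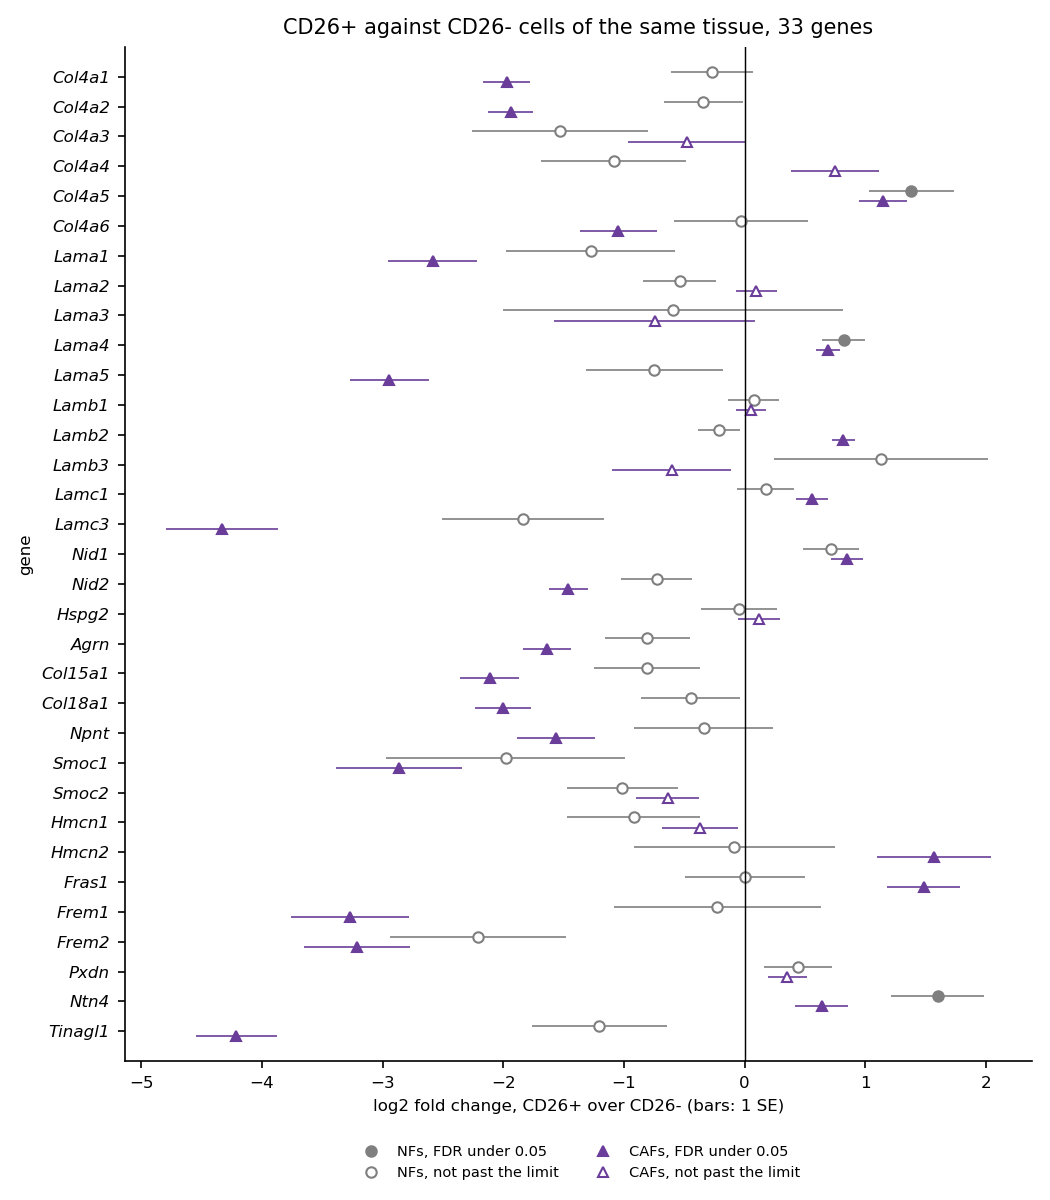
Log2 fold change of CD26+ over CD26- cells of the same tissue for each of the 33 genes (horizontal axis, bars 1 SE, grey circles NFs, purple triangles CAFs). Filled marks have an FDR under 0.05 in the fit without the mouse block. Of the CAF marks 15 are filled on the left of 0 and 8 on the right, and Lamc3 and Tinagl1 lie beyond -4, whereas 3 NF marks are filled.

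Col4a1 and Col4a2 encode the alpha1 and alpha2 chains, which form the collagen IV trimer found in nearly every basement membrane. In CD26- NFs Col4a1 was at 7140, 5521 and 5991 CPM in mice 1 to 3. CD26- CAFs held 7474, 5070, 7420, 4703 and 5165 CPM in WB1P mice 4 to 8 and 8058, 6167, 4587, 11233 and 4521 CPM in WB1P-Myc mice 9 to 13. The groups of the CD26- class overlapped, and the difference was 0.05 ± 0.27 (adjusted p = 0.906). In CD26+ NFs Col4a1 was at 7183, 3192 and 5098 CPM. CD26+ CAFs held 1403, 962, 1587 and 1539 CPM in WB1P mice 5 to 8 and 1442, 1581, 1695, 2680 and 2368 CPM in WB1P-Myc mice. All 9 were below all 3 NF mice, and Col4a1 fell by 1.66 ± 0.28 on the log2 scale (adjusted p = 5.56e-05). Taken by tumor type the difference was -1.91 ± 0.32 in WB1P and -1.40 ± 0.30 in WB1P-Myc. Endothelial markers fell in the same CAFs (7 of 10), and in CD26- CAFs 6 of 10 fell and 3 rose. Pericyte and smooth muscle markers rose in CD26- CAFs (10 of 10), and in CD26+ CAFs 2 rose and 2 fell. The part of either kind of cell in the fall of Col4a1, and in those of Col4a2 and Col18a1 below, was not tested.

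Col4a2 followed its partner gene. It was at 4566, 3583 and 3931 CPM in CD26- NFs, at 5108, 3339, 4944, 3111 and 3355 CPM in WB1P and at 5081, 4448, 3131, 7200 and 2944 CPM in WB1P-Myc CD26- CAFs. In CD26+ cells Col4a2 was at 4641, 1775 and 3128 CPM in NFs, at 903, 786, 1079 and 1043 CPM in WB1P and at 931, 1191, 1180, 1689 and 1487 CPM in WB1P-Myc CAFs. The groups overlapped in the CD26- class (0.08 ± 0.26, adjusted p = 0.83) and did not in the CD26+ class, where Col4a2 fell by 1.52 ± 0.27 (adjusted p = 9.57e-05). The ratio of Col4a2 to Col4a1 in CPM stayed between 0.556 and 0.816 over the 25 sums, with a median of 0.651. The ratio varied more in the other pairs, from 0.0645 to 0.667 for Col4a3 to Col4a4 and from 0.0163 to 0.556 for Col4a6 to Col4a5. In CAF sums, however, Col4a3 had 2 to 88 counts and Col4a6 13 to 321, against at least 4341 for Col4a1 and Col4a2. The part of counting noise in the wider ratios was not tested.

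Within tumors both genes were lower in CD26+ than in CD26- CAFs in 9 of 9 mice with both classes, by -1.97 ± 0.19 for Col4a1 (adjusted p = 8.66e-08) and -1.94 ± 0.19 for Col4a2 (adjusted p = 6.81e-08), with no overlap of the CAF classes. Between the NF classes the differences were -0.27 ± 0.34 and -0.34 ± 0.33 and did not pass the test. The difference between both tumor effects was itself tested as an interaction, (CD26+ CAFs - CD26+ NFs) - (CD26- CAFs - CD26- NFs). It was -1.70 ± 0.39 for Col4a1 (adjusted p = 0.0223) and -1.60 ± 0.38 for Col4a2 (adjusted p = 0.0264), and the test was not passed without control mouse 1 or without control mouse 3. With the block the values were -1.56 and -1.41 (adjusted p = 0.0225 and 0.0272). Per kb of exon, where levels of different genes can be compared, Col4a1 had the highest level of the 33 in CD26- NFs (833 ± 112 CPM per kb, SD, n = 3) and in CD26- CAFs (799 ± 183 in WB1P and 926 ± 377 in WB1P-Myc, n = 5 each). In CD26+ NFs Nid1 (696 ± 27.3 CPM per kb, n = 3) and Col4a1 (691 ± 267) lay side by side within the spread. In CD26+ CAFs Nid1 had the highest level (532 ± 151 CPM per kb, n = 4, and 501 ± 124, n = 5), and Col4a1 lay at 184 ± 38.1 and 262 ± 72.3 CPM per kb.

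**Figure D3:**
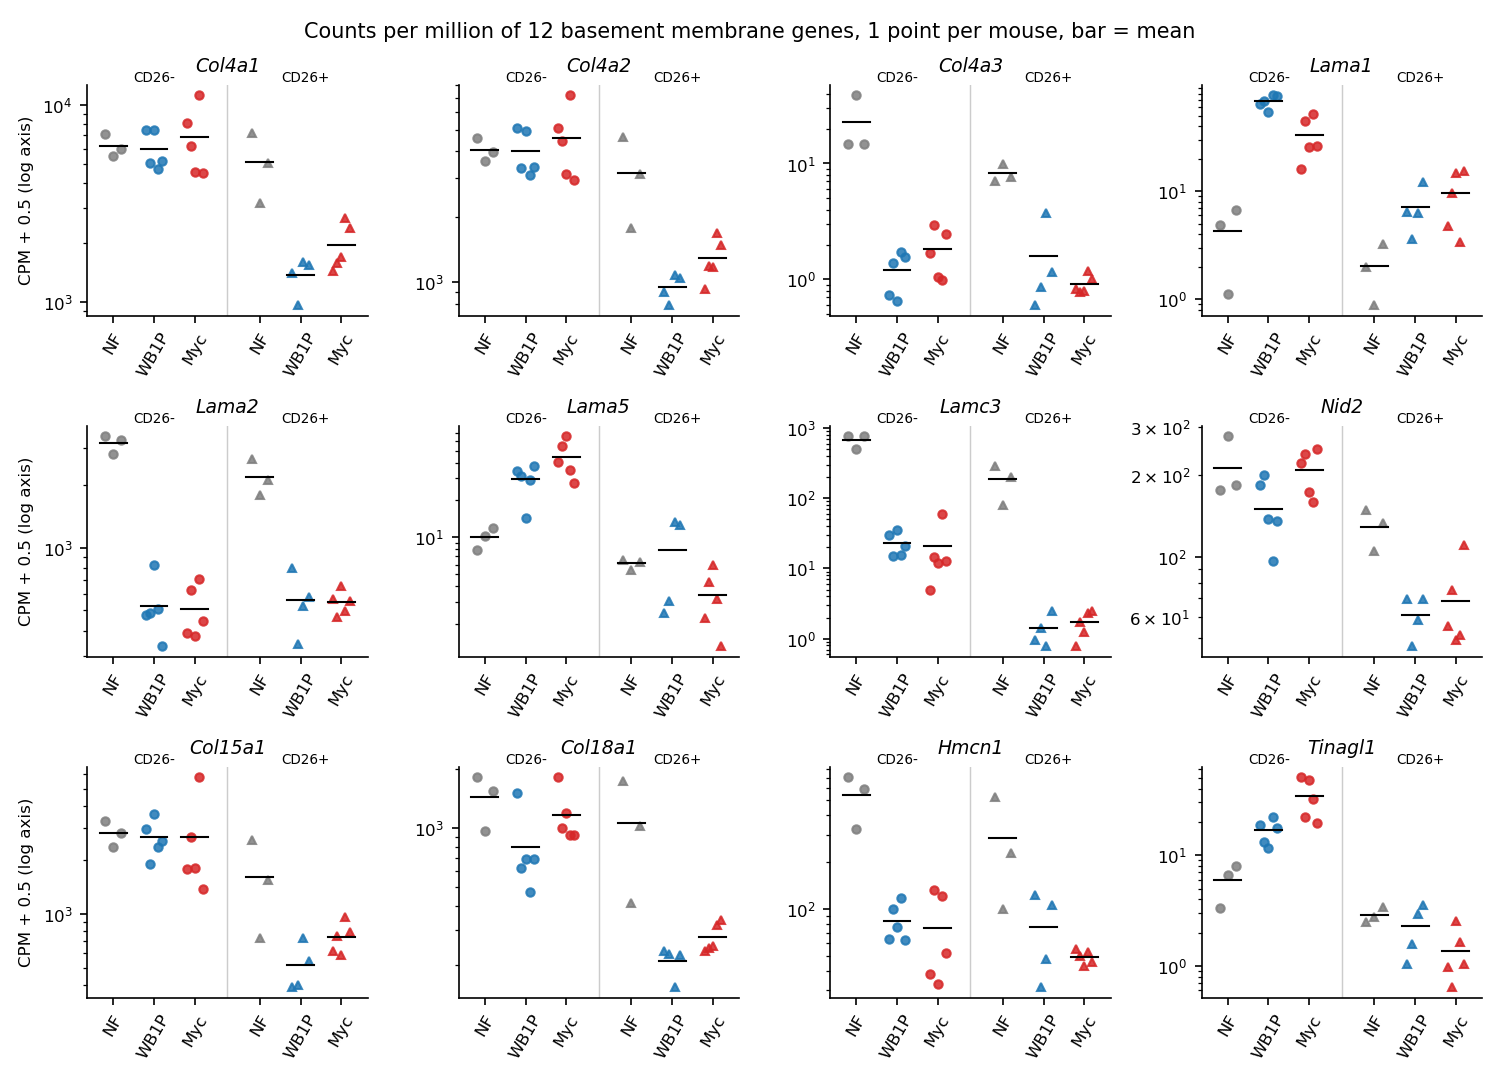
CPM + 0.5 (log axis) of 12 basement membrane genes, 1 point per mouse, bars the group means, circles CD26- and triangles CD26+, for NFs (grey), WB1P CAFs (blue) and WB1P-Myc CAFs (red). Col4a1 and Col4a2 of CD26+ CAFs lie below those of NFs, all CAFs lie below all NFs in Lama2 and Lamc3, and Lama1, Lama5 and Tinagl1 are highest in CD26- CAFs.

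Col4a3 and Col4a4 encode chains of the alpha3-alpha4-alpha5 trimer, known from the kidney glomerulus, and both fell in CAFs. Col4a3 (ENSMUSG00000079465) was at 14.2, 38.4 and 14.1 CPM in CD26- NFs, against 0.233, 0.894, 0.155, 1.23 and 1.07 CPM in WB1P and 1.18, 2.47, 0.56, 0.49 and 1.96 CPM in WB1P-Myc CD26- CAFs. In CD26+ cells Col4a3 was at 6.58, 9.4 and 7.12 CPM in NFs, at 0.0996, 0.362, 3.21 and 0.661 CPM in WB1P and at 0.327, 0.283, 0.302, 0.69 and 0.5 CPM in WB1P-Myc CAFs. No CAF mouse reached an NF mouse of its class, and Col4a3 fell by 4.47 ± 0.61 in CD26- (adjusted p = 1.72e-06) and by 3.42 ± 0.64 in CD26+ CAFs (adjusted p = 0.000123).

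Col4a4 (ENSMUSG00000067158) was at 23.7, 59.3 and 23.2 CPM in CD26- NFs, at 0.853, 1.61, 1.05, 2.54 and 2.11 CPM in WB1P and at 1.78, 5.38, 4.27, 1.02 and 4.16 CPM in WB1P-Myc CD26- CAFs. In CD26+ cells Col4a4 was at 11.7, 21.1 and 17.4 CPM in NFs, at 1.54, 1.81, 10.4 and 5.21 CPM in WB1P and at 2.29, 1.77, 2.27, 4.97 and 4.41 CPM in WB1P-Myc CAFs. Again no group of CAFs overlapped NFs, and Col4a4 fell by 3.91 ± 0.49 (adjusted p = 7.1e-07) and by 2.08 ± 0.50 (adjusted p = 0.00134). Mouse 2 was the highest NF mouse for both genes in both classes, and mouse 7 the highest mouse of the CD26+ CAFs.

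Col4a5 encodes the alpha5 chain, which joins alpha3 and alpha4 or alpha6, and differed between the classes. It was at 24.8, 37.7 and 25.2 CPM in CD26- NFs and at 61.3, 90.5 and 76.9 CPM in CD26+ NFs. CD26- CAFs held 22.6, 39.1, 33.8, 52.9 and 29.3 CPM in WB1P and 28.2, 30.8, 36.7, 46.9 and 43.9 CPM in WB1P-Myc mice. CD26+ CAFs held 113, 50.5, 70.6 and 78.3 CPM in WB1P and 132, 45.6, 51.5, 111 and 74.6 CPM in WB1P-Myc mice. It was higher in the CD26+ class in 3 of 3 NF and 9 of 9 CAF mice, by 1.38 ± 0.36 in NFs (adjusted p = 0.0284) and 1.15 ± 0.20 in CAFs (adjusted p = 9.67e-05). The differences between CAFs and NFs were 0.32 ± 0.29 and 0.08 ± 0.29 and did not pass the test. Col4a6, the alpha6 chain, stayed at 15.7 CPM or less and was lower in CD26+ than in CD26- CAFs by -1.04 ± 0.32 (adjusted p = 0.0128), in 8 of 9 mice.

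Among the laminin alpha chains, which carry the sites for integrins and dystroglycan, tumors had less Lama2 and more Lama1. Lama2 (ENSMUSG00000019899, chr10:26980036-27619758, minus strand), the alpha chain of the muscle laminin, was at 3443, 2831 and 3278 CPM in CD26- NFs. CD26- CAFs held 475, 483, 829.8, 505 and 336 CPM in WB1P and 388, 626, 376, 709 and 442 CPM in WB1P-Myc mice. In CD26+ cells Lama2 was at 2674, 1796 and 2106 CPM in NFs, at 797, 343, 522 and 577 CPM in WB1P and at 568, 464, 657, 494 and 556 CPM in WB1P-Myc CAFs. No CAF overlapped an NF of its class. Lama2 fell by 2.62 ± 0.24 in CD26- (adjusted p = 1.29e-08) and by 1.98 ± 0.25 in CD26+ CAFs (adjusted p = 1.65e-06), and the CAF classes differed by 0.10 ± 0.17 (adjusted p = 0.678). Skeletal muscle markers (6 genes) summed to 63.8 to 303 CPM in CD26- NFs, and 5 of them fell in CD26- CAFs, with a median of -3.30 over the 6. The one that rose, Des, also stands in the pericyte and smooth muscle list. In the CD26+ class these markers summed to 17.9 to 71.3 CPM in NFs and to 4.14 to 12.9 CPM in CAFs. There 1 of the 6 was called lower in CAFs and 0 higher, with a median of -1.08. The part of muscle cells in the fall of Lama2 was not tested.

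Lama1 (ENSMUSG00000032796, chr17:67697259-67822647, plus strand), the alpha chain of the first laminin of the embryo, was low in NFs, at 4.35, 0.621 and 6.23 CPM in the CD26- and 1.47, 0.378 and 2.74 CPM in the CD26+ class. CD26- CAFs held 63.5, 67.3, 53.8, 77.2 and 75.9 CPM in WB1P and 15.5, 44.2, 24.9, 51.4 and 25.5 CPM in WB1P-Myc mice. CD26+ CAFs held 5.93, 3.08, 5.73 and 11.5 CPM in WB1P and 4.3, 9.05, 14.1, 2.85 and 14.8 CPM in WB1P-Myc mice. All CD26- CAFs lay above all CD26+ CAFs, and these above all CD26+ NFs. Lama1 rose by 3.64 ± 0.53 in CD26- (adjusted p = 0.000178) and 2.33 ± 0.58 in CD26+ CAFs (adjusted p = 0.00622) and was lower in CD26+ than in CD26- CAFs by -2.58 ± 0.37 (adjusted p = 1.69e-05). WB1P-Myc lay below WB1P CD26- CAFs by -1.06 ± 0.49, which did not pass the test (adjusted p = 0.331).

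Lama5 (ENSMUSG00000015647, chr2:180176373-180225859, minus strand), the main alpha chain of adult epithelia and vessels, rose in the CD26- class. It was at 7.36, 9.64 and 11.4 CPM in CD26- NFs, at 34, 30.5, 13.8, 28.5 and 37.4 CPM in WB1P and at 39.9, 54, 65.1, 34.5 and 27.1 CPM in WB1P-Myc CD26- CAFs. In CD26+ cells Lama5 was at 6.1, 4.95 and 5.86 CPM in NFs, at 1.94, 2.53, 12.7 and 12 CPM in WB1P and at 1.73, 3.82, 5.44, 2.67 and 0.818 CPM in WB1P-Myc CAFs. CD26- CAFs did not overlap CD26- NFs (1.91 ± 0.45, adjusted p = 0.00506), whereas CD26+ CAFs lay on both sides of CD26+ NFs (-0.28 ± 0.47, adjusted p = 0.653). The CAF classes differed by -2.94 ± 0.33 (adjusted p = 7.5e-07), and the interaction of -2.20 ± 0.66 did not pass the test (adjusted p = 0.0984) but did with the block (-2.38, adjusted p = 0.0106).

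Lama4, the alpha chain of vessels, muscle and fat, was high in every group. It was at 454 to 556 CPM in CD26- NFs, at 471 to 717 CPM in CD26- CAFs, at 853 to 981 CPM in CD26+ NFs and at 797 to 1235 CPM in CD26+ CAFs. The CD26+ class was higher by 0.82 ± 0.18 in NFs (adjusted p = 0.00845) and 0.69 ± 0.10 in CAFs (adjusted p = 9.95e-06), in 3 of 3 and 9 of 9 mice, and CAFs did not differ from NFs past the test. Lama3, the alpha chain of the hemidesmosome laminin of epithelia, was called in none of these comparisons without the block. It was at 57.4 and 38.0 CPM in the 2 classes of WB1P mouse 8 and at 4.3 CPM or less elsewhere. Epithelial markers of mouse 8 summed to 208 CPM in the CD26- class, the highest of the 25 sums. In the CD26+ class they summed to 127 CPM in mouse 8 and to 153 CPM in mouse 7, the highest of that class. The part of epithelial cells was not tested.

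Per kb of exon, the alpha chains together changed their proportions. Lama2 made 81.6% ± 1.87 (SD, n = 3) of the summed alpha CPM per kb in CD26- NFs and 63.7% ± 3.24 (n = 3) in CD26+ NFs. In CAFs it made 33.3% ± 7.52 and 33.5% ± 4.16 in the CD26- class (n = 5 each, WB1P and WB1P-Myc) and 27.1% ± 3.5 (n = 4) and 28.6% ± 3.8 (n = 5) in the CD26+ class. The share of Lama4 was 17.8% ± 2.05 and 35.9% ± 3.29 in NFs, and 55.1% ± 4.15 to 71.1% ± 3.39 over the CAF groups. Lama1 and Lama5 made at most 0.417% of the alpha chains in any NF mouse, and 7.5% ± 1.75 and 2.76% ± 1.04 in WB1P and 3.54% ± 1.12 and 4.45% ± 2.2 in WB1P-Myc CD26- CAFs. A share moves with all chains at once, so that the rise of Lama4's share came with a level that did not change past the test.

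**Figure D4:**
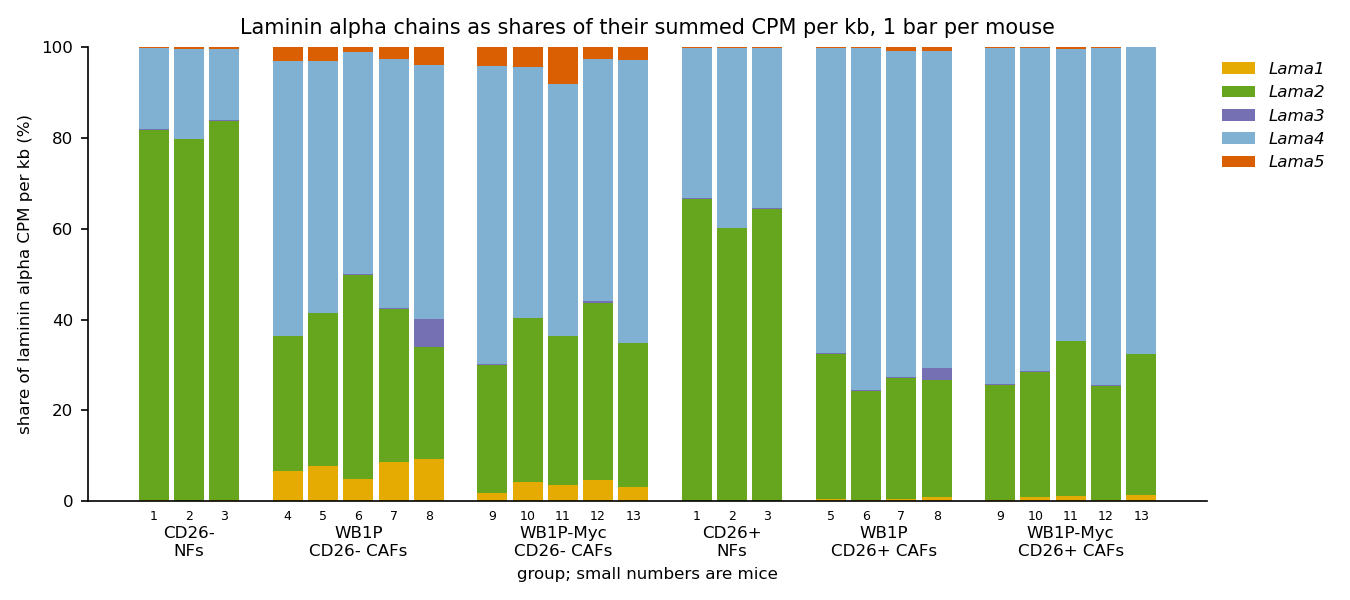
Shares (%) of the 5 laminin alpha chains in their summed CPM per kb of exon, 1 bar per mouse, grouped by model and CD26 class. Lama2 takes 79.7% to 83.5% of each bar in CD26- NFs and 23.9% to 44.9% in CAFs, Lama1 and Lama5 show in CD26- CAFs, and Lama3 shows in mouse 8.

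Beta and gamma chains complete the trimer. Lamb1, the common beta chain, was at 1715 to 2256 CPM in NFs and at 655 to 1310 CPM in CAFs over both classes, and it fell by 0.90 ± 0.17 in CD26- (adjusted p = 0.00018) and by 0.92 ± 0.17 in CD26+ CAFs (adjusted p = 0.000235), with no overlap in either class. Lamb2, the beta chain of muscle, nerve and vessel laminins, fell in CD26- CAFs. It was at 803, 902 and 640.5 CPM in CD26- NFs and at 349 to 519 CPM in CD26- CAFs, a fall by 0.80 ± 0.14 (adjusted p = 6.94e-05). In CD26+ cells Lamb2 was at 660.3, 760.3 and 601 CPM in NFs and at 592 to 921 CPM in CAFs, a difference of 0.23 ± 0.14 (adjusted p = 0.205). The interaction was 1.03 ± 0.20 (adjusted p = 0.00558), and it was the 1 interaction called upward. It did not pass the test without control mouse 1 and was 1.06 with the block (adjusted p = 0.00454).

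Lamb3, the beta chain of the hemidesmosome laminin, was at 1.74, 1.24 and 3.28 CPM in CD26- NFs. It was at 41.9, 8.35, 2.6, 5.17 and 35 CPM in WB1P and at 1.33, 0.891, 9.58, 10.6 and 6.53 CPM in WB1P-Myc CD26- CAFs. CD26+ NFs held 2.93, 5.36 and 5.44 CPM, and CD26+ CAFs 7.37, 5.07, 7.44 and 26.1 CPM in WB1P and 4.72, 3.39, 5.67, 3.13 and 3.14 CPM in WB1P-Myc mice. The high values of mice 4 and 8 stood apart, and the groups overlapped. The difference in the CD26- class was 2.31 ± 0.72 (adjusted p = 0.0285), and it did not pass the test whichever control mouse was left out, nor without mice 12 and 13.

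Lamc3 (ENSMUSG00000026840, chr2:31887291-31946539, plus strand), the gamma3 chain, had the largest fall of the 33 in both classes. It was at 770.0, 497 and 761 CPM in CD26- NFs, at 29.2, 14.7, 34.8, 15.2 and 20.2 CPM in WB1P and at 4.36, 14.2, 11.3, 58.3 and 12.2 CPM in WB1P-Myc CD26- CAFs. In CD26+ cells Lamc3 was at 288, 80.7 and 199.5 CPM in NFs, at 0.448, 0.905, 0.292 and 1.98 CPM in WB1P and at 0.281, 1.2, 0.756, 1.84 and 1.95 CPM in WB1P-Myc CAFs. The 4 kinds of cells did not overlap in any of the 4 comparisons between CAFs and NFs or between classes. Lamc3 fell by 4.98 ± 0.54 in CD26- (adjusted p = 1.21e-07) and fell by 7.47 ± 0.61 in CD26+ CAFs (adjusted p = 3.08e-08). The CD26+ class was lower by -4.33 ± 0.47 in CAFs (adjusted p = 3.61e-07) and by -1.84 ± 0.67 in NFs, which passed the test with the block alone. An antisense gene on the other strand, Gm13441, shares 6.272% of its exon length, and the strand setting of the counting is not given in the sources used here. Lamc1, the common gamma chain, was at 1731 to 2596 CPM in NFs and 903 to 2362 CPM in CAFs, and fell by 0.88 ± 0.19 in CD26- CAFs (adjusted p = 0.000551). Its fall by 0.49 ± 0.19 in CD26+ CAFs (adjusted p = 0.0392) was lost in 8 of 18 alternatives, among them each that left out a control mouse. Lamc3 made 30.5% ± 2.77 of both gamma chains per kb in CD26- NFs (SD, n = 3) and 9.58% ± 4.37 in CD26+ NFs (n = 3), against 2.62% ± 0.905 and 2.2% ± 2 in CD26- CAFs (n = 5 each) and 0.0827% and 0.104% in CD26+ CAFs.

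Nidogens link laminin to collagen IV. Nid1 was at 2515 to 3346 CPM in CD26- NFs and at 1407 to 2550 CPM in CD26- CAFs, against 4680 to 5043 CPM in CD26+ NFs and 2421 to 4864 CPM in CD26+ CAFs. In 9 of 9 tumor mice the CD26+ CAFs had more of it (0.85 ± 0.13, adjusted p = 2.49e-05). Its fall by 0.56 ± 0.19 in CD26- CAFs (adjusted p = 0.018) did not pass the test without control mouse 1 or 3. Nid2 moved the other way between the CAF classes. It was at 176, 278 and 184 CPM in CD26- NFs, at 183, 199, 137, 95.8 and 135 CPM in WB1P and at 221, 238, 173, 158 and 248 CPM in WB1P-Myc CD26- CAFs. In CD26+ cells Nid2 was at 148, 104 and 133 CPM in NFs, at 69, 46.2, 57.8 and 69 CPM in WB1P and at 55, 74.5, 48.6, 50.8 and 110.0 CPM in WB1P-Myc CAFs. Only mouse 13 among CD26+ CAFs reached the NF range, and Nid2 fell by 1.00 ± 0.24 in the CD26+ class (adjusted p = 0.0016) and differed by -0.27 ± 0.23 in the CD26- class (adjusted p = 0.36). It was lower in CD26+ than in CD26- CAFs in 9 of 9 mice, by -1.46 ± 0.17 (adjusted p = 5.19e-07). Nid2 shares 8.446% of its exon length with Rtraf on the other strand.

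Perlecan (Hspg2) and agrin (Agrn) are the large heparan sulfate proteoglycans of basement membranes. Hspg2 was at 2877 to 5478 CPM in NFs and 1469 to 4012 CPM in CAFs. It fell by 0.70 ± 0.25 in CD26- CAFs (adjusted p = 0.0246), a call lost without control mouse 1 or 3. Agrn was at 416, 223 and 378 CPM in CD26- NFs, at 637, 478, 721, 462 and 447 CPM in WB1P and at 390.1, 406, 392, 746 and 299 CPM in WB1P-Myc CD26- CAFs. In CD26+ cells Agrn was at 253, 158 and 171 CPM in NFs, at 224, 89.4, 138 and 165 CPM in WB1P and at 129.5, 110.2, 169, 156 and 259.8 CPM in WB1P-Myc CAFs. NFs and CAFs overlapped in both classes, whereas all CD26+ CAFs lay below all CD26- CAFs (-1.63 ± 0.20, adjusted p = 1.59e-06).

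Collagens XV and XVIII sit at the stromal face of basement membranes, and the C-terminal part of collagen XVIII is endostatin. Col15a1 was at 3293, 2356 and 2835 CPM in CD26- NFs, at 2965, 1886, 3629, 2348 and 2544 CPM in WB1P and at 1778, 2671, 1801, 5803 and 1376 CPM in WB1P-Myc CD26- CAFs. In CD26+ cells Col15a1 was at 2569, 731 and 1542 CPM in NFs, at 388, 402, 736 and 545 CPM in WB1P and at 617, 749.8, 591, 959 and 787 CPM in WB1P-Myc CAFs. Mouse 2 was the low NF mouse and lay within the CAF range. Col15a1 fell by 1.38 ± 0.36 in CD26+ CAFs (adjusted p = 0.0027), but without control mouse 1 by 0.88 (adjusted p = 0.076), and differed by -0.08 ± 0.35 in CD26- CAFs. The CAF classes differed by -2.11 ± 0.25 (adjusted p = 1.15e-06) without overlap.

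Col18a1 was at 1820, 964 and 1537 CPM in CD26- NFs, at 1506, 623, 692, 469 and 698 CPM in WB1P and at 1813, 1003, 1195, 923 and 920.0 CPM in WB1P-Myc CD26- CAFs. In CD26+ cells Col18a1 was at 1730, 416 and 1024 CPM in NFs, at 234, 227, 154 and 225 CPM in WB1P and at 235, 244, 249.6, 320.4 and 338 CPM in WB1P-Myc CAFs. The CD26- groups overlapped (-0.58 ± 0.33, adjusted p = 0.152). The CD26+ groups did not, and Col18a1 fell by 2.13 ± 0.34 there (adjusted p = 2.43e-05). The CAF classes differed by -2.0 ± 0.23 (adjusted p = 9.3e-07), and the interaction of -1.55 ± 0.47 passed the test with the block alone (-1.18, adjusted p = 0.0355).

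Hemicentins are giant immunoglobulin-domain proteins that anchor adjoining basement membranes, and both fell in CD26- CAFs. Hmcn1 was at 707, 327 and 589.7 CPM in CD26- NFs, at 63, 98.6, 75.6, 117 and 62.3 CPM in WB1P and at 37.4, 131, 32.5, 120.4 and 51.7 CPM in WB1P-Myc CD26- CAFs. In CD26+ cells Hmcn1 was at 529, 99.8 and 229.9 CPM in NFs, at 122, 30.8, 47.1 and 105 CPM in WB1P and at 54.3, 49.4, 42, 52 and 45.3 CPM in WB1P-Myc CAFs. WB1P mice 5 and 8 overlapped NF mouse 2 in the CD26+ class. Hmcn1 fell by 2.78 ± 0.44 in CD26- (adjusted p = 1.26e-05) and by 2.23 ± 0.45 in CD26+ CAFs (adjusted p = 0.000301). The value in CD26+ cells was -1.44 with control mouse 1 left out, and passed the test there.

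Hmcn2 was at 528, 1405 and 720.0 CPM in CD26- NFs, at 8.53, 315, 47.5, 82 and 95.5 CPM in WB1P and at 232, 320.3, 259.7, 23.5 and 206 CPM in WB1P-Myc CD26- CAFs. In CD26+ cells Hmcn2 was at 769.7, 863 and 869 CPM in NFs, at 852, 266, 388 and 523 CPM in WB1P and at 376, 364, 711, 112 and 425 CPM in WB1P-Myc CAFs. The CD26- groups did not overlap, and Hmcn2 fell by 2.55 ± 0.67 (adjusted p = 0.00195). In the CD26+ class the difference was -0.89 ± 0.68 (adjusted p = 0.281), and CD26+ CAFs were above CD26- CAFs in 9 of 9 mice (1.57 ± 0.47, adjusted p = 0.0118).

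The Fraser complex of Fras1, Frem1 and Frem2 anchors epithelial basement membranes to the dermis. Frem1 was at 682, 142 and 683 CPM in CD26- NFs, at 223, 205, 635, 379 and 150.2 CPM in WB1P and at 32.5, 332, 66.3, 552 and 59.1 CPM in WB1P-Myc CD26- CAFs. In CD26+ cells Frem1 was at 762, 78.9 and 449 CPM in NFs, at 17, 19.2, 14.3 and 30.9 CPM in WB1P and at 18.1, 57.1, 23.7, 51.9 and 25 CPM in WB1P-Myc CAFs. NF mouse 2 was low in both classes, and CD26+ CAFs still lay below it. Frem1 fell by 4.01 ± 0.71 in CD26+ CAFs (adjusted p = 7.85e-05), differed by -0.96 ± 0.69 in CD26- CAFs (adjusted p = 0.246), and was lower in CD26+ than in CD26- CAFs by -3.27 ± 0.49 (adjusted p = 5.14e-05). Fras1 stayed at 10.3 CPM or less, and fell by 2.60 ± 0.41 in CD26- (adjusted p = 1.33e-05) and by 1.11 ± 0.41 in CD26+ CAFs (adjusted p = 0.0265), the latter not without control mouse 3. It was higher in the CD26+ CAF class by 1.49 ± 0.30 (adjusted p = 0.000447). Frem2 stayed at 3.55 CPM or less and was lower in CD26+ than in CD26- CAFs by -3.21 ± 0.44 (adjusted p = 3.69e-06).

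Tinagl1 (ENSMUSG00000028776, chr4:130164454-130175122, minus strand) encodes a secreted relative of the tubulointerstitial nephritis antigen that binds laminin and integrins. It was at 2.86, 6.17 and 7.45 CPM in CD26- NFs, at 18.4, 12.7, 11.2, 21.9 and 17 CPM in WB1P and at 50.5, 21.7, 47.2, 31.5 and 18.9 CPM in WB1P-Myc CD26- CAFs. In CD26+ cells Tinagl1 was at 1.98, 2.27 and 2.9 CPM in NFs, at 0.548, 1.09, 2.44 and 3.03 CPM in WB1P and at 0.468, 0.141, 2.04, 1.15 and 0.545 CPM in WB1P-Myc CAFs. CD26- CAFs lay above every other kind of cell. Tinagl1 rose by 2.09 ± 0.44 in CD26- CAFs (adjusted p = 0.00214), differed by -0.92 ± 0.48 in CD26+ CAFs (adjusted p = 0.118) and was lower in CD26+ than in CD26- CAFs by -4.21 ± 0.34 (adjusted p = 1.07e-08). The interaction was -3.01 ± 0.65 (adjusted p = 0.0164), was not called whichever control mouse was left out, and was -3.17 with the block (adjusted p = 0.00178).

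Ntn4 encodes netrin-4, which binds laminin gamma chains and opens the laminin network. It was at 21.7, 24 and 22.8 CPM in CD26- NFs, at 47, 37.8, 46.8, 38.5 and 56 CPM in WB1P and at 27.9, 27.3, 42.3, 68.7 and 17.4 CPM in WB1P-Myc CD26- CAFs. CD26+ cells held 50.7, 86 and 70.7 CPM in NFs, 92.3, 62.3, 57.1 and 73.8 CPM in WB1P and 82.9, 60, 41.3, 72.5 and 25 CPM in WB1P-Myc CAFs. It was higher in the CD26+ class by 1.60 ± 0.39 in NFs (adjusted p = 0.0205) and 0.64 ± 0.22 in CAFs (adjusted p = 0.0239). The call in CAFs was lost without WB1P mouse 5, WB1P-Myc mouse 9 or WB1P-Myc mouse 10 (highest adjusted p = 0.0913). Its rise by 0.84 ± 0.31 in CD26- CAFs (adjusted p = 0.0458) was lost in 11 of 18 alternatives, and mouse 13 lay below all NFs.

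The remaining members are given by their ranges. Npnt, the integrin alpha8 ligand nephronectin, reached 4.88 CPM, rose in CD26- CAFs by 1.74 ± 0.45 (adjusted p = 0.00788) and was lower in the CD26+ CAF class by -1.56 ± 0.32 (adjusted p = 0.000633). Smoc1, a calcium-binding matricellular protein, reached 16.7 CPM, rose in CD26- CAFs by 2.46 ± 0.72 (adjusted p = 0.0202) and was lower in the CD26+ CAF class by -2.87 ± 0.52 (adjusted p = 0.000271). The rise of Npnt was lost without control mouse 1 and that of Smoc1 without control mouse 1 or 3. Smoc2 lay between 67.3 and 637 CPM and Pxdn, the peroxidase that makes the sulfilimine crosslinks of collagen IV, between 256 and 1116 CPM. Neither was called in the comparisons of CAFs with NFs, and Pxdn rose in WB1P CD26- CAFs alone taken against NFs by 0.84 ± 0.25 (adjusted p = 0.0155).

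The interaction over all members asks where the tumor effect differs between the classes. It was called for Col4a1, Col4a2 and Tinagl1, with a lower value in the CD26+ class, and for Lamb2, with a higher one, 12.1% of the 33, where 2.11% of all genes were called (0.723% higher and 1.39% lower). Without control mouse 1 no member was called, and without control mouse 3 none with a lower value. Of all genes, 141 of 17071 and 74 of 17011 were then called. With the block 2 were higher and 7 lower, with Lama5, Col18a1, Lamc3 (-2.17, adjusted p = 0.0139), Frem1 (-2.47, adjusted p = 0.0271) and Hmcn2 (1.60, adjusted p = 0.0301) added to the 4. The block called 1010 of 16601 genes in this contrast, against 351 without it. Pericyte and smooth muscle markers moved with the same contrast, 6 of 10 being called lower and none higher, and endothelial markers, 3 of 10 being called lower.

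No member was called for Myc in the tumor cells or for the En1 lineage of the fibroblasts. Between WB1P-Myc and WB1P, edgeR called 0 of 33 in CD26- CAFs, where 0.512% of all genes were called, and 0 of 33 in CD26+ CAFs, where 0% were. At an unadjusted p under 0.05 there were 11 and 6 members, but all genes were not counted at that limit, so that these counts have no background. DESeq2 called 1 and 0 members, where it called 411 and 9 of all 16601 genes. The lowest p in CD26- CAFs was that of Pxdn, lower in WB1P-Myc by -0.76 ± 0.22 (adjusted p = 0.119). For the En1 lineage, GFP+ against GFP- libraries over all groups, edgeR called 0 of 33, where 0.0128% of all genes were called. There were 3 members at an unadjusted p under 0.05, again without a count of all genes, of which Col4a6 had the lowest (-0.79 ± 0.21, adjusted p = 0.581). DESeq2 called 0 members and 7 of 15584 genes.

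Genes around the members were counted from lists. Of 21 other basement membrane and anchoring genes tested, 4 rose and 7 fell in CD26- CAFs, where 41.3% of all genes were called, and 4 rose and 4 fell in CD26+ CAFs, where 41.2% were. The CD26+ CAF class had 8 higher and 8 lower (39% of all genes called), and the CD26+ NF class 0 higher and 2 lower (4.17%). Egfl6, a secreted EGF-domain protein, rose by 3.85 ± 0.97 (adjusted p = 0.0061) and 6.00 ± 1.11 (adjusted p = 0.000568) in CD26- and CD26+ CAFs. Egflam, the laminin-domain protein pikachurin, fell by 4.48 ± 0.63 in CD26+ CAFs (adjusted p = 7.9e-06). Col7a1, the anchoring fibril collagen, was lower in the CD26+ class by -4.34 ± 0.40 in CAFs (adjusted p = 1.8e-07) and -2.67 ± 0.70 in NFs (adjusted p = 0.0429). Papln, papilin, fell by 2.60 ± 0.57 in CD26- CAFs (adjusted p = 0.000442) and was higher in the CD26+ CAF class by 3.83 ± 0.41 (adjusted p = 3.89e-07). Mmrn2, an endothelial matrix protein, fell by 2.12 ± 0.53 and 3.06 ± 0.57 in CD26- and CD26+ CAFs (adjusted p = 0.00158 and 0.000133). Colq, the collagen tail of acetylcholinesterase, fell by 2.28 ± 0.71 in CD26+ CAFs (adjusted p = 0.00905), and Efemp1, fibulin-3, was higher in the CD26+ CAF class by 2.52 ± 0.35 (adjusted p = 1.01e-05).

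Of 26 receptors of basement membrane proteins tested, 9 rose and 5 fell in CD26- CAFs, 5 rose and 5 fell in CD26+ CAFs, and 6 were higher and 11 lower in CD26+ than in CD26- CAFs, where 41.3%, 41.2% and 39% of all genes were called. Itga1, the alpha subunit of a collagen IV receptor, rose by 4.32 ± 0.32 in CD26- CAFs (adjusted p = 1.43e-07) and was lower in the CD26+ CAF class by -4.41 ± 0.23 (adjusted p = 9.69e-11). Itga7, a laminin receptor subunit, rose by 2.33 ± 0.46 in CD26- CAFs (adjusted p = 0.00168) and was lower in the CD26+ CAF class by -3.71 ± 0.33 (adjusted p = 7.41e-08). Bcam, a laminin alpha5 receptor, and Itga6 were lower in that class by -3.88 ± 0.28 (adjusted p = 1.97e-09) and -2.55 ± 0.38 (adjusted p = 2.49e-05). Itga8, the nephronectin receptor subunit, fell in both classes, by 2.82 ± 0.48 (adjusted p = 2.54e-05) and 4.64 ± 0.52 (adjusted p = 4.8e-07). Sdc3, a syndecan, rose in both, by 3.30 ± 0.36 (adjusted p = 7.43e-06) and 2.52 ± 0.37 (adjusted p = 0.000134). Between the NF classes 2 of the 26 were higher in CD26+ cells and 0 lower, where 4.17% of all genes were called. Itga2 was higher in CD26+ than in CD26- NFs by 3.15 ± 0.61 (adjusted p = 0.00611).

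Of 27 genes of synthesis, assembly and crosslinking tested, 12 rose and 1 fell in CD26- CAFs, where 20.4% of all genes rose and 21% fell, and 17 rose and 0 fell in CD26+ CAFs, where 20.1% rose and 21.1% fell. Of these genes, 5 were higher and 3 lower in the CD26+ class of CAFs (19.1% and 19.9% of all genes), and 1 was higher in that of NFs, where 4.17% of all genes were called. P4ha3, a collagen prolyl 4-hydroxylase, rose by 4.27 ± 0.18 (adjusted p = 1.13e-10) and 3.69 ± 0.18 (adjusted p = 6.46e-10) in CD26- and CD26+ CAFs. P3h2, the prolyl 3-hydroxylase that acts on collagen IV, rose by 2.43 ± 0.55 in CD26- CAFs (adjusted p = 0.00421) and was lower in the CD26+ CAF class by -2.54 ± 0.39 (adjusted p = 3.6e-05). In the interaction, where 2.11% of all genes were called, 2 of the 26 receptors were called lower and 0 higher. No gene of the lists of other basement membrane genes and of synthesis was called.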

How the data were processed

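The deposited table holds raw counts of reads per gene, made by the authors from TruSeq stranded mRNA libraries. The submitters' processing notes name HISAT2 2.2.1 and GRCm38. The counter, its strand setting and the annotation are not given in the sources used here. Of the gene identifiers, 55140 were found in GENCODE M21, 54783 with the same coordinates, and its exons gave lengths. Of 55487 lines 1 names no gene and holds 0 counts.

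Members and gene lists were chosen with earlier results of these data known. Counts of the libraries of a mouse and CD26 class were summed (25 sums, 6 groups), filtered with filterByExpr, normalized by TMM and tested with the quasi-likelihood test of edgeR 4.0.16 in R 4.3.3, with Benjamini-Hochberg adjustment over 16601 genes. WB1P and WB1P-Myc had equal weight. The En1 comparison used single libraries in 12 groups (15584 genes). SEs came from the fitted dispersion and information matrix. The study used DESeq2 with an FDR of 0.05 and a log2 fold change over 2. Here DESeq2 1.42.0 was an alternative, and the FDR alone made the call.

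Values of every mouse are given for members called with a log2 fold change beyond ±1 in any of the first 4 comparisons and a mean of at least 10 CPM in any group. Genes of the 3 lists are named past 2. Lists of marker genes covered fibroblasts, pericytes and smooth muscle, endothelium, epithelium and immune cells as given above. Schwann markers summed to 9.68 to 69.6 CPM, adipocyte markers to at most 11.1 CPM, and skeletal muscle markers to 63.8 to 303 CPM in CD26- NFs, 93.2 to 122 in WB1P and 59.3 to 215 in WB1P-Myc CD26- CAFs, 17.9 to 71.3 in CD26+ NFs and 4.14 to 12.9 in CD26+ CAFs.

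Depth was 5790599 to 15240328 counts per library (median 12818093). Both classes come from the same animals, and their deviations from group means correlated with r from 0.247 to 0.707 (12 pairs, median 0.467, across genes, which are not independent). Among 63 pairs of libraries of a group none was a copy (lowest index of dispersion 14.8). Alternatives were size factors or the Wald test of DESeq2, all genes unfiltered, a block for the mouse, single libraries as units, the mice marked 8x8 dropped, and 1 mouse dropped at a time. The scripts were tested on simulated data. No label names a sequencing batch, so that none could be tested. No library was left out.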

Additional observations from a re-analysis of the deposited data

Results flagged for a closer look

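Values of single mice stood far from the others of their group by Dixon's 95% limit in 11 of 132 groups of 4 or 5 mice, where chance alone gives about 1 in 20, or 6.6. WB1P mouse 8 had 57.4 CPM of Lama3 in CD26- CAFs (nearest mouse 2.41) and 38.0 CPM in CD26+ CAFs (nearest 2.37), and 26.1 CPM of Lamb3 in CD26+ CAFs (nearest 7.44). Lama3 and Lamb3 encode chains of the hemidesmosome laminin of epithelia. Epithelial markers of this mouse summed to 208 CPM in CD26- CAFs, the highest of the 25 sums. In CD26+ CAFs they summed to 127 CPM in mouse 8 and to 153 CPM in mouse 7, which was not flagged for either gene. The part of epithelial cells was not tested. WB1P-Myc mouse 12, marked 8x8, was high in CD26- CAFs for Lamc3 (58.3 CPM, nearest 14.2), Agrn (746 CPM, nearest 406) and Lama3 (4.30 CPM, nearest 1.28), and in CD26+ CAFs for Frem2 (0.506 CPM, nearest 0.0756). WB1P mouse 4 was high for Col18a1 in CD26- CAFs (1506 CPM, nearest 698), and mouse 7 low for it in CD26+ CAFs (154 CPM, nearest 225). WB1P mouse 5 was high for Hmcn2 in CD26- CAFs (315 CPM, nearest 95.5), and WB1P-Myc mouse 11 for Smoc1 in CD26+ CAFs (1.66 CPM, nearest 0.424).

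The tumor effect differed between the CD26 classes, by the test of the interaction, for Col4a1 (-1.70), Col4a2 (-1.60), Tinagl1 (-3.01) and Lamb2 (1.03). These values are given above with their errors and with the control mice on which the calls rest.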

How the results depend on the processing

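Of 64 called results of single members, 47 were called in every alternative, 17 were lost in at least 1, mostly without 1 control mouse, and none reversed. The mouse block could be fitted only to comparisons within mice. With it, and otherwise unchanged, called lower in CD26+ NFs were 3 members in place of 0, and in the interaction 2 higher and 7 lower in place of 1 and 3, and in the other comparisons it could be fitted to, no count moved by over 1.5 times. Of all 16601 genes the block called 1916 in place of 692 between the NF classes. In the interaction it called 1010 in place of 351. Single libraries gave 4 members higher in CD26+ CAFs against NFs in place of 1, and 7 lower in CD26+ NFs in place of 0. That setting counts libraries of 1 mouse and class as independent, which they are not, and it calls more genes. Between the NF classes it called 2143 of 15584 genes, against 692 of 16601 in the main test. DESeq2's test gave 1 lower in CD26+ NFs, 1 lower in WB1P-Myc against WB1P CD26- CAFs (in place of 0) and 6 lower in the interaction. Of all 16601 genes it called 996, 411 and 726 there, against 692, 85 and 351 in the main test. Without the mice marked 8x8, 1 was lower in CD26+ NFs, where 648 of 16451 genes were called.

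With each mouse left out in turn, 3 to 7 members rose in CD26- CAFs and 0 to 3 were higher and 0 to 1 lower in CD26+ NFs, the 1 without WB1P-Myc mouse 12. The interaction had 0 to 1 higher and 0 to 3 lower. Calls over all genes moved as well. Without control mouse 3, 4890 of 17011 genes were called in CD26- CAFs, 175 between the NF classes and 74 in the interaction.

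Differences that did not pass the test and lay near 0 changed sign in some alternatives. Col4a1 in CD26- CAFs was -0.022 without the mice marked 8x8 and -0.087 to 0.16 with 1 mouse left out, and Col4a2 -0.044 to 0.18. Col4a5 in CD26+ CAFs was -0.057 to 0.23, Ntn4 there -0.31 to 0.074, Lama2 between the CAF classes -0.031 to 0.29, and Col15a1 in CD26- CAFs -0.33 to 0.049, and 0.016 with single libraries. Between the NF classes Hmcn2 was 0.040 with the block and -0.30 to 0.39 with 1 mouse left out, and Frem1 -0.63 to 0.0087.

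Genes under about 1 CPM, such as Col4a3 and Lamc3 in CD26+ CAFs, rest on few counts, and their fold changes there have SEs of 0.64 and 0.61.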
